A study of Mus musculus with 2 samples.

Results

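The 5 genes described here make, package and set the effect of the inhibitory transmitter GABA, and were chosen by name: *Gad1*, *Gad2*, *Slc32a1*, *Slc12a2* and *Slc12a5*, 5 of the 27998 genes in the count tables. Their unique molecular identifiers (UMIs, the tags that mark each captured RNA molecule) were counted in cells gated by the UMIs of marker genes, and the gates used none of the 5 genes. The data are 2 single-cell libraries of telencephalic tissue of C57BL/6 mice at postnatal day 0 (P0), captured on the 10x Genomics Chromium platform. The labels name telencephalic tissue, while the study's methods say that cerebral cortex was taken, and neurons with striatal and olfactory bulb markers were present in both libraries. The WT library is labelled wild type, while the study's text names the control of its single-cell experiment STING fl/fl, so whether the WT animals carried floxed alleles is unclear. The cKO library is STINGf/f;Nestin-Cre, in which Cre is driven from the Nestin promoter and removes the floxed *STING* gene in the neural lineage, while microglia and vessel cells arise outside it. With 1 library per genotype no test between genotypes was possible, and every interval below is a 95% interval that covers counting error only. The number of animals behind each library is not given in the sources used here.

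GABA is made from glutamate by glutamate decarboxylase, which 2 genes encode. *Gad1* encodes GAD67, the form found throughout the neuron, and *Gad2* encodes GAD65, the form enriched at nerve terminals. *Slc32a1* encodes VGAT, which loads GABA into synaptic vesicles. Whether GABA then excites or inhibits its target depends on chloride in the receiving cell. *Slc12a2* encodes NKCC1, which carries chloride in, and *Slc12a5* encodes KCC2, the neuron-specific carrier that moves it out. In rodent forebrain the change from NKCC1 to KCC2 takes place around and after birth as neurons mature.

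After filtering and removal of doublets, 6496 WT and 5883 cKO cells were kept, with a median of 6512 and 7495 UMIs per cell. The 2 libraries shared 19 barcodes in all and 7 among kept cells. *Tmem173*, the gene of STING, had 121 UMIs in the WT and 18 in the cKO cells. These counts cover all kept cells and were not split by cell group. Endothelial cells (98 in WT and 50 in cKO) and microglia (59 and 30) were fewer in cKO. *Xist* had 10 and 69519 UMIs and 4 Y-linked genes had 9512 and 6, so the libraries also differ in sex-linked genes, and sex and genotype cannot be told apart. Among kept cells, 1426 WT and 1133 cKO cells were GABAergic-lineage neurons (neuronal genes with *Dlx* or striatal genes) and 2429 and 2688 were glutamatergic-lineage neurons (neuronal genes with *Neurod2*, *Neurod6* and related genes). *Sp9*, a GABAergic-lineage transcription factor that the gates did not use, stood at 429 CPM (UMIs per 1000000 of the group) in WT GABAergic-lineage neurons and at 2.60 CPM in WT glutamatergic-lineage neurons. Cells left out as mixed or unassigned numbered 159 and 676 in WT and 75 and 734 in cKO.

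In GRCm38 (GENCODE M21), *Gad2* spans bases 22622205 to 22693874, *Gad1* 70553072 to 70602014, *Slc32a1* 158610767 to 158615748 and *Slc12a5* 164960802 to 164999731, all on the plus strand of chromosome 2. The antisense gene *Gad1os* overlaps 10286 bases of *Gad1* and had 15 UMIs in WT and 3 in cKO, against 3230 and 2479 of *Gad1* over all barcodes. *Gm14205* overlaps 911 bases of *Slc32a1* and had 3 and 1. Whether counting used strand is not given in the sources used here. Promoters are shown because *Gad1*, *Gad2* and *Slc32a1* moved together across cell types, and because *Slc12a5* has 2 listed start sites whose transcripts these UMIs do not separate. The sequences are RefSeq promoter entries (GRCm38.p6), 260 bases each, from 250 before to 10 after the start site, with a motif match in capitals.
Gad1, chr2:70561879-70562138 (+): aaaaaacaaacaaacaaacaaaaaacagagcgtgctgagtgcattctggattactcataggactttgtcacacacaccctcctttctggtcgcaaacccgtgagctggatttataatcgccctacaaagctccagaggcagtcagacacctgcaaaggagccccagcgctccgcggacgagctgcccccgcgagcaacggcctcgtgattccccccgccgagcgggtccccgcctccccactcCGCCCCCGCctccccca
Gad2, chr2:22622077-22622336 (+): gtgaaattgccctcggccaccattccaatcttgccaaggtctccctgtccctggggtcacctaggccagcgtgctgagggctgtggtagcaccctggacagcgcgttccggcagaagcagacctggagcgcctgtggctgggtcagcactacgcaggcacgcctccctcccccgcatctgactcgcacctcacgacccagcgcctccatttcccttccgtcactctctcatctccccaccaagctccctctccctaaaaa
Slc32a1, chr2:158610508-158610767 (+): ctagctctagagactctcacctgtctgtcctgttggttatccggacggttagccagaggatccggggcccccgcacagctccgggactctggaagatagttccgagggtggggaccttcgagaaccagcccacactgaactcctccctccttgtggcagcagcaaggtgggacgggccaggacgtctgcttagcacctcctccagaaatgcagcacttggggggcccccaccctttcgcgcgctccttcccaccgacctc
Slc12a5 upstream start, chr2:164960596-164960855 (+): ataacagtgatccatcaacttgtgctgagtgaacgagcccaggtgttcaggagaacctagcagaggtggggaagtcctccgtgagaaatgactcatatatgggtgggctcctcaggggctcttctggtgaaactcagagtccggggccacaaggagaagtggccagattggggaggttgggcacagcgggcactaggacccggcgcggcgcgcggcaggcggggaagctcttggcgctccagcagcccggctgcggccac
Slc12a5 downstream start, chr2:164967738-164967997 (+): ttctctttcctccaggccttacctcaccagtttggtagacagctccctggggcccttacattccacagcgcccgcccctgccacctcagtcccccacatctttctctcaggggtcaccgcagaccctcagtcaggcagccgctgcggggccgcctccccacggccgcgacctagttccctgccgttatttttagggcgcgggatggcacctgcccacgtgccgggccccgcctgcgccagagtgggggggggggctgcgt

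Each entry was searched on both strands, over its whole 300 bases, for TAATTA (a homeodomain core), CAGCTG (an E-box) and GCGGGGGCG (the EGR family motif). Of 32851 promoters in the table, 5.29%, 16.3% and 2.91% held them. The only match among the 5 entries was GCGGGGGCG on the reverse strand of *Gad1*, beginning 7 bases before the start site of that entry. The entry begins at base 70561879, inside the *Gad1* span that begins at base 70553072, so the match is not at the start of that span. The entries were 60.0% to 68.3% G and C, against a median of 52.7% over all promoters.

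*Gad1*, *Gad2* and *Slc32a1* were concentrated in GABAergic-lineage neurons and their cycling precursors. In WT, 67.7% of *Gad1*, 65.8% of *Gad2* and 74.0% of *Slc32a1* UMIs lay in GABAergic-lineage neurons, and in cKO 74.1%, 67.9% and 74.2%. The level of *Gad1* in GABAergic-lineage neurons was 197 CPM (187 to 207) for WT and 191 CPM (181 to 201) for cKO. In glutamatergic-lineage neurons it was 5.002 and 1.81 CPM. *Slc32a1* stood at 169 and 152 CPM against 2.23 and 0.660 CPM, and *Gad2* at 324 and 491 CPM against 5.70 and 5.10 CPM. All 3 genes were thus low in glutamatergic-lineage neurons of both libraries.

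The 3 genes did not follow the same order among the GABAergic types. The types were gated by markers of the medial (MGE) and caudal (CGE) ganglionic eminences, which give cortical interneurons, of olfactory bulb (OB) interneurons and of striatal projection neurons. In WT, *Gad1* was highest in MGE type cells at 328 CPM and CGE type cells at 280 CPM, which did not differ beyond counting error, and then 180 CPM in OB type and 132 CPM in striatal type cells. *Slc32a1* also led in MGE type (232 CPM), CGE type (205 CPM) and striatal type cells (190 CPM), neighbours that did not differ beyond counting error, and was 112 CPM in OB type cells. *Gad2* ran otherwise. It was highest in OB type cells at 448 CPM, ahead of CGE type at 344 CPM, while MGE type (250 CPM), striatal type (244 CPM) and cycling *Dlx* cells (251 CPM) did not differ beyond counting error.

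In cKO, *Gad2* led in OB type cells at 707 CPM followed by CGE type (584 CPM), cycling *Dlx* (503 CPM), MGE type (436 CPM) and striatal type cells (316 CPM). *Gad1* was highest in CGE type cells at 286 CPM, ahead of OB type (221 CPM) and MGE type cells (209 CPM). Cycling *Dlx* cells, dividing precursors of the lineage, held *Gad2* already at 251 CPM in WT and 503 CPM in cKO, while *Gad1* was at 63.5 and 101 CPM and *Slc32a1* at 43.4 and 68.1 CPM. *Gad2* was also listed in oligodendrocyte precursors (OPC) at 21.8 and 33.8 CPM and in *Eomes*+ cells at 21.1 and 48.0 CPM. Microglia, used below as background, had 7.65 CPM (2.48 to 17.9) and 16.1 CPM (6.47 to 33.1), from 5 and 7 UMIs. These intervals overlapped those of WT *Eomes*+ cells (12.9 to 32.5) and cKO OPC (27.7 to 40.8). In OPC, 69 of 675 WT and 39 of 347 cKO cells held a *Gad2* UMI, with at most 11 and 15 in a cell.

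**Figure D1:**
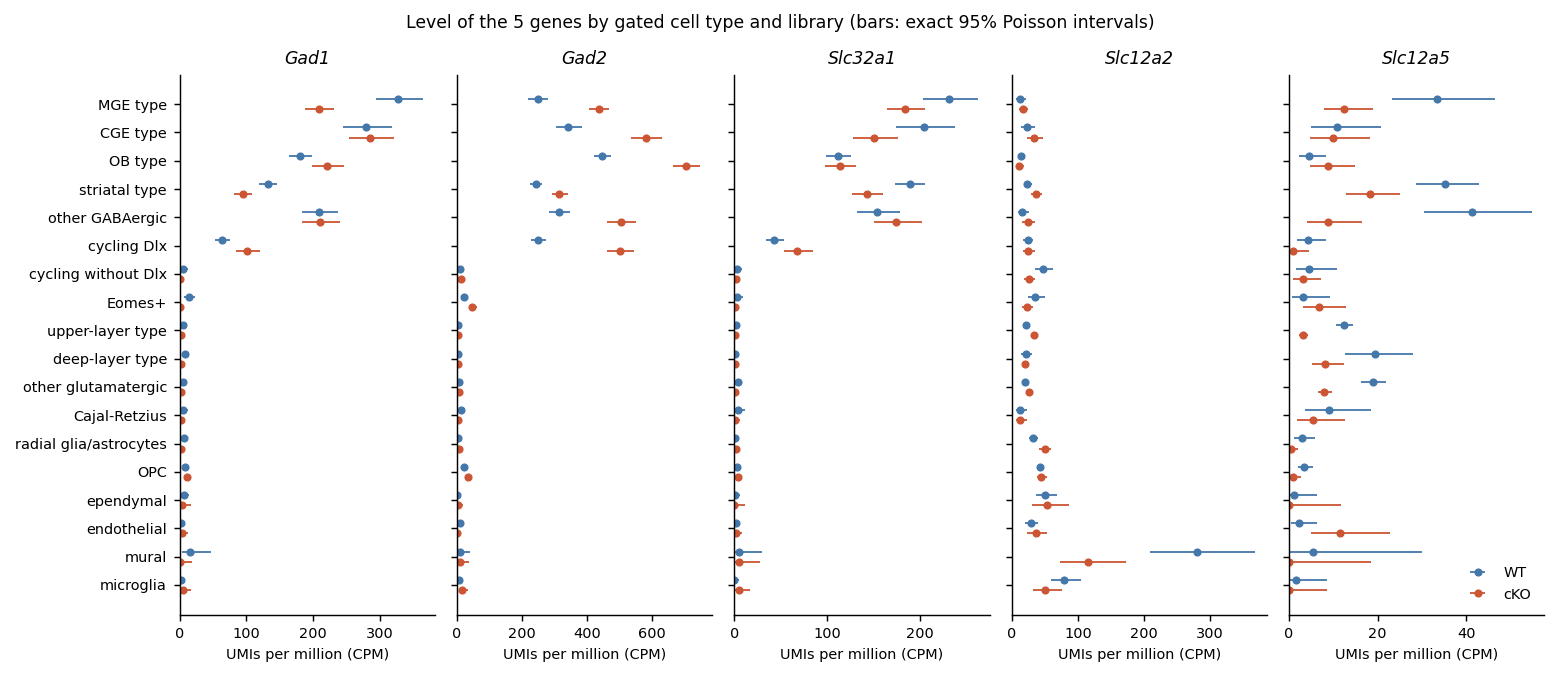
Level of each gene in CPM (x axis, its own scale per panel) in 18 gated cell types (rows) of the WT (blue) and cKO (red) library, with exact Poisson intervals. Gad1, Gad2 and Slc32a1 are high in the 6 GABAergic-lineage rows, Slc12a2 is highest in the row of the mural gate (280 CPM in WT and 115 CPM in cKO), which also holds cells with glial markers, and Slc12a5 is highest in WT striatal, MGE and other GABAergic neurons.

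Most GABAergic-lineage neurons held at least 1 of the 3 genes. Any of them was seen in 1285 of 1426 WT cells (90.1%) and in 1079 of 1133 cKO cells (95.2%), against 10.8% and 6.92% of glutamatergic-lineage neurons. Since cells differed in depth (median 4566 UMIs in WT and 5403 in cKO GABAergic-lineage neurons), each cell was also thinned to 2000 UMIs, which kept 1348 and 1096 of them. The shares were then 68.8% and 78.1%, against 2.94% and 1.69% of glutamatergic-lineage neurons. All 3 genes together were seen in 274 WT cells (19.2%) and 331 cKO cells (29.2%) before thinning, and in 3.04% and 5.57% after it.

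*Gad2* was the gene most often detected, and the share of cells with it was higher in cKO. After thinning, 631 of 1348 WT cells (46.8%) and 670 of 1096 cKO cells (61.1%) held a *Gad2* UMI, 14.3 percentage points more in cKO (10.3 to 18.3). The same difference was 2.71 points for *Gad1* (-0.96 to 6.40), from 27.7% to 30.4%. For *Slc32a1* it was 2.59 points (-0.83 to 6.03), from 22.0% to 24.5%, so that both intervals included 0. Of cells with a *Slc32a1* UMI before thinning, 88.4% in WT and 96.0% in cKO also held a *Gad1* or *Gad2* UMI. Microglia, which should lack these genes, gave the background of free RNA. Among 51 thinned WT microglia none held a *Gad2* UMI, which allows a share of up to 5.88%, and 1 of 28 cKO microglia did, at a median of 9951 and 12022 UMIs per cell before thinning.

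Between libraries, *Gad2* was higher in cKO in every GABAergic type, while *Gad1* and *Slc32a1* were not. Ratios are given as log2 of the cKO level over the WT level. Over all GABAergic-lineage neurons this was 0.60 for *Gad2* (0.53 to 0.67), with 2657 WT and 3638 cKO UMIs. It was -0.045 for *Gad1* (-0.15 to 0.059), and -0.15 for *Slc32a1* (-0.26 to -0.034). The direction of both depended on the processing: *Gad1* was 0.064 with TMM factors and 0.010 where a marker list needed 5 UMIs, and with the mean of each cell's CPM *Gad1* was 0.21 and *Slc32a1* 0.17. The median over the 10581 genes with at least 50 UMIs in this group was -0.058, and 85.7% of those genes had a lower ratio than *Gad2*. Outside the GABAergic types, summed *Gad2* was also higher in cKO *Eomes*+ cells, at 1.19 (0.44 to 1.99) from 20 and 64 UMIs. In OPC it was 0.63 (0.24 to 1.02). After thinning, the share of cells with *Gad2* differed by 3.64 points in *Eomes*+ cells (-2.72 to 10.0) and 1.01 points in OPC (-1.63 to 4.12). Both intervals include 0. Microglia, the background, had a log2 ratio of 1.07 for *Gad2* (-0.80 to 3.07), from 5 and 7 UMIs. In glutamatergic-lineage neurons *Gad2* was -0.16 (-0.51 to 0.18). None of the 5 genes passed 2-fold in GABAergic-lineage neurons (among cells of at least 1000 genes and at most 5% mitochondrial UMIs, *Slc12a5* at -1.71 and *Slc12a2* at 1.06 did), where 4.39% of all tested genes were at least 2-fold higher in cKO and 13.2% at least 2-fold lower.

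Within the types, *Gad2* had a log2 ratio of 0.81 in MGE type (0.60 to 1.01), 0.76 in CGE type (0.56 to 0.97), 0.66 in OB type (0.54 to 0.78) and 0.37 in striatal type cells (0.21 to 0.53). In cycling *Dlx* cells it was 1.00 (0.83 to 1.18), the largest of these, from 474 UMIs in 205 WT cells and 606 in 103 cKO cells. *Gad1* pointed in different directions. It was lower in cKO MGE type cells at -0.65 (-0.87 to -0.43) and striatal type cells at -0.48 (-0.74 to -0.23), and higher in OB type cells at 0.30 (0.09 to 0.51) and cycling *Dlx* cells at 0.67 (0.30 to 1.05). *Slc32a1* was lower in MGE type (-0.33), striatal type (-0.40) and CGE type cells (-0.44), with intervals below 0, was 0.030 in OB type cells (-0.25 to 0.31), and was higher at 0.65 in cycling *Dlx* cells (0.19 to 1.11). The median over all genes in these types lay between -0.016 and 0.054, and apart from *Gad2* in cycling *Dlx* cells these ratios by type were computed with CPM scaling only. In MGE type cells a WT cell held at most 45 *Gad1* and 24 *Slc32a1* UMIs, against 14 and 9 in a cKO cell. The share of MGE type cells with *Gad1* was 65.0% in WT and 61.0% in cKO. After thinning it was 39.6% and 27.5%, a difference of -12.1 points (-22.4 to -1.75), so this share was lower in cKO too. The share of MGE type cells with *Slc32a1* was not lower in cKO, at 55.2% in WT and 69.7% in cKO, and after thinning at 27.3% and 35.4%, a difference of 8.03 points (-2.24 to 17.8). In CGE type cells, with at most 19 *Slc32a1* UMIs in a WT and 4 in a cKO cell, this share was 47.3% and 57.1%. After thinning it was 28.0% and 27.4%, a difference of -0.65 points (-11.4 to 9.86). In striatal type cells the thinned differences were -1.64 points for *Gad1* (-8.05 to 5.08) and -5.12 points for *Slc32a1* (-11.8 to 1.89), intervals that include 0. In cycling *Dlx* cells they were 7.95 points for *Gad1* (-1.69 to 18.4) and 0.76 points for *Slc32a1* (-6.75 to 9.51), which also include 0. In GABAergic-lineage neurons outside these types *Gad1* was 209 and 211 CPM, *Gad2* 315 and 506 CPM and *Slc32a1* 154 and 175 CPM. The gated types were not alike in the libraries in other genes: *Ptprz1*, a gene of glia and their precursors, went from 88.7 CPM in WT to 229 CPM in cKO in striatal type and from 136 to 38.5 CPM in MGE type cells, and *Calb2*, an interneuron marker, from 102 to 19.2 CPM in MGE type cells. Their part in the ratios was not tested.

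**Figure D2:**
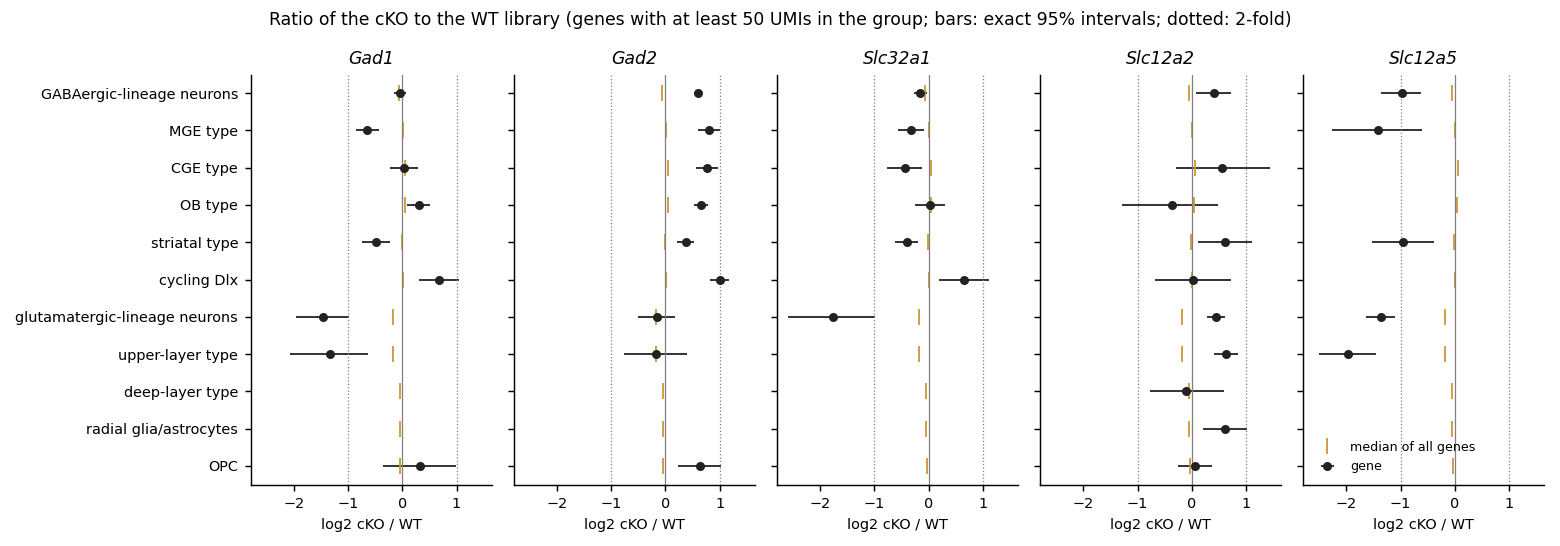
Log2 ratio of the cKO over the WT library (x axis) for each gene in 11 cell groups (rows), shown where the gene had at least 50 UMIs, with exact intervals. Amber ticks mark the median of all genes tested in that group and dotted lines 2-fold. Gad2 lies right of the median in all 6 GABAergic-lineage rows, with a log2 ratio from 0.37 in striatal type to 1.00 in cycling Dlx cells, and Slc12a5 lies at -0.95 or below in each row where it is shown.

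The balance of the 2 decarboxylase genes therefore differed between libraries and between types. *Gad2* made up 62.2% of *Gad1* and *Gad2* UMIs in WT (60.7% to 63.7%) and 72.0% in cKO GABAergic-lineage neurons (70.7% to 73.2%). This share is compared across cells only, since UMIs of 2 genes need not be captured alike. It was lowest in WT MGE type cells at 43.2% (39.2% to 47.3%) and highest in cycling *Dlx* cells at 79.8% in WT and 83.2% in cKO. The difference of cKO from WT was 24.4 points in MGE type (19.5 to 29.2), 12.1 in striatal type (7.89 to 16.2), 12.02 in CGE type (6.60 to 17.4) and 4.83 in OB type cells (1.61 to 8.03). In cycling *Dlx* cells it was 3.44 points (-0.85 to 7.80), an interval that includes 0.

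**Figure D3:**
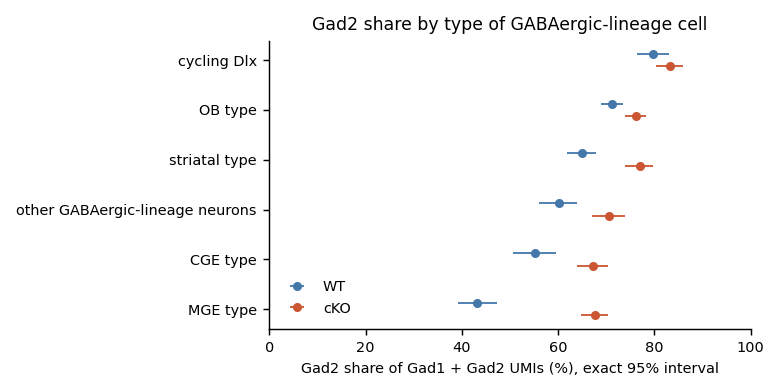
Gad2 share of Gad1 plus Gad2 UMIs in percent (x axis) in 6 types of GABAergic-lineage cell (rows), WT in blue and cKO in red, with exact binomial intervals. The cKO point lies right of the WT point in every row, with the widest gap in MGE type cells (43.2% against 67.6%).

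The 3 genes were then followed along maturation. Neurons of each lineage were split into 5 bins by the share of late marker UMIs (*Snap25*, *Syt1*, *Syp*, *Camk2b*, *Atp1b1*, *Rbfox3*) among early and late marker UMIs, with the same limits in both libraries. In WT GABAergic-lineage neurons *Gad2* went down from 504 CPM in bin 1 through 421, 359 and 264 to 203 CPM in bin 5. *Slc32a1* ran the other way, from 86.2 CPM in bin 1 through 91.5, 94.8 and 133 to 297 CPM in bin 5. *Gad1* was between 117 and 164 CPM in bins 1 to 4 and 292 CPM in bin 5. The bins differed in type as well as in maturity: OB type cells were 59.0% of WT bin 1 and 8.22% of bin 5, and striatal type cells 12.6% and 46.2%. Within WT striatal type cells alone, binned on their own limits, *Gad2* was 391 CPM in bin 1 and 202 CPM in bin 5, *Slc32a1* 69.1 and 362 CPM, and *Gad1* 133 and 197 CPM, the same directions.

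In cKO *Gad2* also went down, at a higher level, from 642 and 705 CPM in bins 1 and 2 to 338 CPM in bin 5. *Gad1* showed no step in cKO, at 175 to 201 CPM in all 5 bins, and *Slc32a1* went from 119 to 206 CPM. In bin 5 the log2 ratio was -0.54 for *Gad1* (-0.71 to -0.37) and -0.53 for *Slc32a1* (-0.70 to -0.36), but 0.73 for *Gad2* (0.57 to 0.89). In bin 1 the ratios of the same genes were 0.43, 0.46 and 0.35, all with intervals above 0. The makeup of bin 5 differed between libraries: striatal type cells were 46.2% of it in WT and 31.8% in cKO, and MGE type cells 20.2% and 45.9%. Within striatal type cells bin 5 gave log2 ratios of -1.10 for *Gad1* (-1.59 to -0.64), -0.51 for *Slc32a1* (-0.81 to -0.22) and 0.57 for *Gad2* (0.25 to 0.88). The lower *Gad1* and higher *Gad2* of late cKO neurons were therefore also measured inside 1 type.

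**Figure D4:**
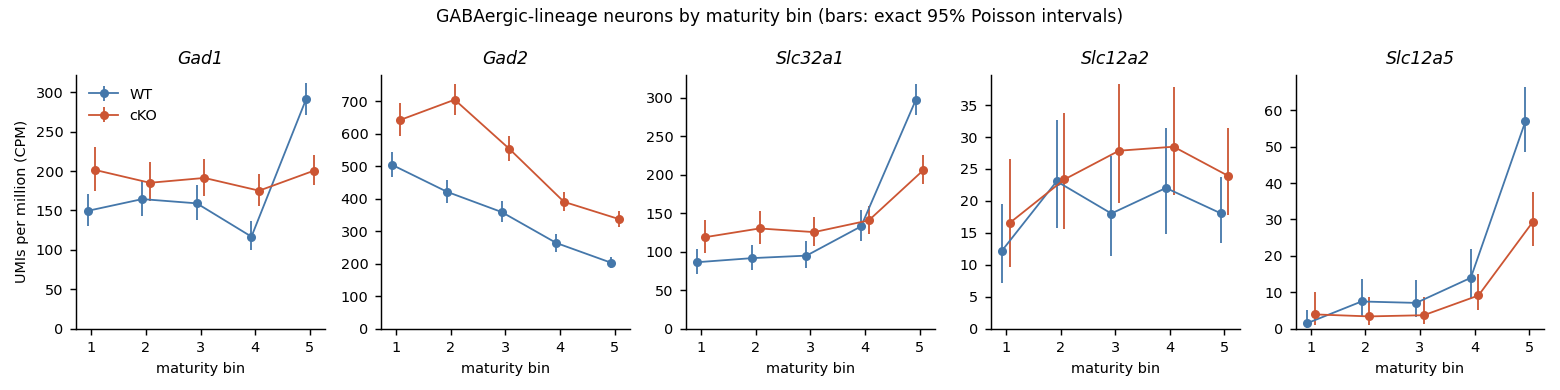
Level of each gene in CPM (y axis, its own scale per panel) in GABAergic-lineage neurons by maturity bin (x axis, 1 earliest and 5 latest), WT in blue and cKO in red, with exact Poisson intervals. Gad2 is lower in bin 5 than in bin 1 in both libraries, Gad1 and Slc32a1 step up in WT bin 5 (292 and 297 CPM), and Slc12a5 reaches 57.0 CPM in WT and 29.4 CPM in cKO.

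Among groups with at least 20 cells, the level of the chloride importer *Slc12a2* was highest outside the neurons, and that of the exporter *Slc12a5* inside them. *Slc12a2* was highest in cells of the mural gate, set by markers of the contractile cells of small vessels, at 280 CPM in WT (209 to 368, 30 cells) and 115 CPM in cKO (73.1 to 173, 21 cells). The gate was not pure. *Ptprz1*, a receptor of glia and their precursors, stood at 1990 and 1881 CPM in it against 7.29 and 13.1 CPM in endothelial cells, and 14 WT and 11 cKO cells also passed the radial glia/astrocyte list. Those 14 WT cells held 0 *Slc12a2* UMIs and the 11 cKO cells 10. In the remaining 16 and 10 cells, split off after seeing the data, *Slc12a2* was 553 CPM (413 to 726) and 245 CPM (131 to 420). The larger set of cells that passed the mural list but were left out as mixed, again without the glial list, numbered 83 and 36 and had 162 CPM (145 to 181) and 172 CPM (146 to 202), with no lower level in cKO. Among groups with at least 20 cells, the next in WT were microglia at 79.6 CPM, ahead of ependymal cells (50.8 CPM), cycling cells without *Dlx* (47.9 CPM) and OPC (43.0 CPM), which did not differ from neighbours beyond counting error. In WT both neuronal lineages were lower than these groups, at 18.5 CPM in GABAergic-lineage and 20.9 CPM in glutamatergic-lineage neurons. In cKO they had 24.5 and 28.6 CPM, against 25.9 CPM in cycling cells without *Dlx*. Striatal type (36.4 CPM), CGE type (33.9 CPM) and upper-layer type cells (33.5 CPM) of cKO stood beside endothelial cells (36.3 CPM). Glutamatergic-lineage neurons by their number held 28.3% of WT and 47.2% of cKO *Slc12a2* UMIs. Cells left out as mixed held 22.1% of WT and 9.44% of cKO *Slc12a2* UMIs. Of those in WT, 185 UMIs lay in 35 cells that passed the endothelial, mural and fibroblast gates together and 117 in 37 cells that passed the endothelial and mural gates.

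In GABAergic-lineage neurons *Slc12a5* had a level of 24.5 CPM (21.2 to 28.2) for WT and 12.4 CPM (10.003 to 15.2) for cKO. In glutamatergic-lineage neurons it was 15.3 CPM (13.8 to 16.9) and 5.94 CPM (5.08 to 6.90). In WT it was 41.4 CPM in GABAergic-lineage neurons outside the gated types, 35.2 CPM in striatal type, 33.4 CPM in MGE type, 10.9 CPM in CGE type and 4.63 CPM in OB type cells. Among glutamatergic-lineage neurons, deep-layer type cells had 19.3 CPM and upper-layer type cells 12.3 CPM in WT. Radial glia/astrocytes had 2.89 CPM in WT and 0.351 CPM in cKO, from 7 and 1 UMIs. Cajal-Retzius cells, early-born neurons of the cortical surface, had 9.03 and 5.39 CPM from 7 and 5 UMIs. Endothelial cells had 2.19 and 11.6 CPM from 3 and 8 UMIs. The cKO interval (5.01 to 22.9) includes the level of cKO glutamatergic-lineage neurons. In cKO the highest level was 18.2 CPM in striatal type cells, and the next in order, MGE type cells at 12.5 CPM, did not differ from it beyond counting error.

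Both cotransporters were sparse. In 82.3% of WT and 81.8% of cKO GABAergic-lineage neurons neither gene had a UMI, and 21 and 13 cells had both. In glutamatergic-lineage neurons 73.7% and 74.0% had neither, and 69 and 45 cells had both. After thinning to 2000 UMIs, 2.06% of WT and 0.614% of cKO glutamatergic-lineage neurons held *Slc12a5*, a difference of -1.44 points (-2.15 to -0.79), and 3.86% and 5.68% held *Slc12a2*, a difference of 1.81 points (0.60 to 3.02). In GABAergic-lineage neurons *Slc12a2* was held by 4.15% and 4.84%, a difference of 0.68 points (-1.02 to 2.44) whose interval includes 0. No thinned microglia held *Slc12a5*, but with 51 and 28 of them a share of up to 5.88% and 10.7% would go unseen, so that these shares lie under what that background can show. The balance was therefore read from UMIs summed over cells, but the background limits these too. Summed over microglia, *Slc12a5* was 1.53 CPM in WT (0.039 to 8.53), from 1 UMI, and 0 CPM in cKO (up to 8.48). The cKO levels of glutamatergic-lineage neurons (5.94 CPM) and upper-layer type cells (3.16 CPM) lie under that upper limit. Types and maturity bins with levels that low carry the same limit.

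In UMIs summed over each neuronal lineage, *Slc12a5* was lower and *Slc12a2* higher in the cKO library. In glutamatergic-lineage neurons it was, as a log2 ratio, -1.37 for *Slc12a5* (-1.64 to -1.10), from 370 WT and 171 cKO UMIs, and 0.45 for *Slc12a2* (0.29 to 0.61), from 506 and 824. The median of all 12163 genes tested there was -0.17. *Slc12a5* was 1 of the genes at least 2-fold lower, which were 16.5% of those tested, and 4.42% were at least 2-fold higher. *Gad1* and *Slc32a1* were also past 2-fold lower in this group, but at levels like those of microglia (1.53 and 4.60 CPM of *Gad1*, and 0 and 4.60 CPM of *Slc32a1*), so nothing is read from them. The WT level of *Slc12a5* in this group (15.3 CPM) lay above the upper limit of WT microglia (8.53 CPM). Its cKO level (5.94 CPM) lay under that of cKO microglia (8.48 CPM), and how much of it is background was not tested. With only cells of at least 1000 genes and at most 5% mitochondrial UMIs, the *Slc12a5* ratio was -3.13 (-4.50 to -2.00) and that of *Slc12a2* 0.46 (-0.089 to 1.02), which includes 0.

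In GABAergic-lineage neurons the log2 ratio was -0.98 for *Slc12a5* (-1.35 to -0.62), from 201 and 92 UMIs, and 0.40 for *Slc12a2* (0.086 to 0.73), from 152 and 182. With the same stricter filter these were -1.71 (-3.02 to -0.58) and 1.06 (0.25 to 1.90). In OB type cells *Slc12a2* was -0.37 (-1.28 to 0.49). By type, *Slc12a5* had -1.42 in MGE type (-2.26 to -0.61), -0.95 in striatal type (-1.54 to -0.39) and -1.96 in upper-layer type cells (-2.50 to -1.45). In GABAergic-lineage neurons outside the types *Slc12a5* had -2.25 (48 and 9 UMIs). These cells were not alike in the libraries in other genes, with *Npy* at 3048 CPM in WT and 880 CPM in cKO. The part of this in the ratio was not tested. CGE and OB type cells had too few UMIs to be read, with 9 and 11 in WT and 10 and 14 in cKO. *Slc12a2* had 0.63 in upper-layer type cells (0.41 to 0.85) and 0.61 in radial glia/astrocytes (0.21 to 1.03), where 3.12% of the genes tested were at least 2-fold higher and 8.68% at least 2-fold lower. After thinning, the share of cells with *Slc12a2* differed by 2.63 points in upper-layer type cells (0.86 to 4.47). In radial glia/astrocytes it differed by 1.60 points (-2.19 to 5.49), an interval that includes 0. As a log2 ratio, *Slc12a2* had -0.10 in deep-layer type cells (-0.77 to 0.59), 0.062 in OPC (-0.25 to 0.37) and -0.62 in *Eomes*+ cells (-1.37 to 0.12), intervals that include 0. In cycling cells without *Dlx* it was lower in cKO, at -0.89 (-1.51 to -0.27), from 52 and 42 UMIs, with at most 10 in a WT cell and 2 in a cKO cell. After thinning, 7.61% of these WT cells and 3.57% of the cKO cells held *Slc12a2*, a difference of -4.04 points (-11.9 to 2.93) whose interval includes 0.

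The *Slc12a5* share of *Slc12a2* plus *Slc12a5* UMIs sums up this balance. It was 56.9% in WT (51.6% to 62.2%) and 33.6% in cKO GABAergic-lineage neurons (28.0% to 39.5%), a difference of -23.4 points (-31.0 to -15.4). In glutamatergic-lineage neurons it was 42.2% (38.9% to 45.6%) and 17.2% (14.9% to 19.7%), a difference of -25.1 points (-29.1 to -20.9). Upper-layer type cells had 36.2% and 8.63%, and deep-layer type cells 47.4% and 28.9%. OB type cells had 23.9% and 43.8%, from 46 and 32 UMIs in all, and their difference of 19.8 points had an interval from -3.03 to 41.6. Radial glia/astrocytes had 8.14% and 0.699% and OPC 7.45% and 2.07%. Not all groups outside the neurons were low: *Eomes*+ cells had 8.11% and 22.5%, the last from 9 *Slc12a5* UMIs of which 7 lay in 1 cell, and endothelial cells 6.98% and 24.2%, the latter from 8 of 33 UMIs (11.1% to 42.3%), above the cKO glutamatergic-lineage value.

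In both lineages and both libraries the share was higher in the latest bin than in the earliest, but for all except WT GABAergic-lineage neurons the interval of the difference included 0 under at least 1 alternative. In WT GABAergic-lineage neurons it was 10.5%, 24.4%, 28.1%, 38.8% and 75.9% from bin 1 to bin 5, and in cKO 19.0%, 12.5%, 11.6%, 24.2% and 55.2%. Bin 5 exceeded bin 1 by 65.4 points in WT (41.9 to 76.2) and by 36.1 points in cKO (11.4 to 52.6). In cKO it was 12.5 points with the stricter filter (-50.2 to 57.7) and 16.4 points in thinned cells (-11.7 to 44.8). These bins differ in type, as given above. Within striatal type cells bin 5 exceeded bin 1 by 35.3 points in WT (5.26 to 61.8) and by 53.4 points in cKO (6.14 to 73.8), so the larger WT difference was not seen inside this type. In the most mature bin the level of *Slc12a5* was 57.0 CPM in WT and 29.4 CPM in cKO, while *Slc12a2* stayed between 12.2 and 28.5 CPM over all bins and both libraries. In these neurons the share thus moved with *Slc12a5* more than with *Slc12a2*. Between libraries the share of bin 5 differed by -20.8 points (-31.8 to -9.57), while the intervals of the differences in bins 1 to 4 all included 0. Within striatal type cells, bin 5 had 78.2% in WT and 67.6% in cKO, a difference of -10.5 points whose interval (-30.4 to 7.57) also included 0.

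In glutamatergic-lineage neurons the share was 15.2%, 18.1%, 31.7%, 41.9% and 52.1% in WT and 5.98%, 6.56%, 9.21%, 9.90% and 36.3% in cKO. The cKO library lay below WT by 11.5 points in bin 2 (-21.5 to -2.20), 22.5 in bin 3 (-33.2 to -12.0), 32.0 in bin 4 (-40.6 to -23.3) and 15.8 in bin 5 (-22.8 to -8.52). Bin 5 exceeded bin 1 by 36.9 points in WT (22.5 to 46.9) and 30.4 in cKO (22.3 to 37.0). In WT it did so by 15.1 points in thinned cells (-10.7 to 37.4) and 72.8 points with the stricter filter (19.5 to 82.1), under which the cKO value was 27.8 points (-2.84 to 53.5). In bin 1 the interval of the difference (-23.3 to 1.45) included 0. In cKO the largest step lay between bins 4 and 5. The cKO level of *Slc12a5* was 1.75 to 4.07 CPM over bins 1 to 4, under the 8.48 CPM upper limit of cKO microglia, and 14.4 CPM in bin 5. Deep-layer type cells were 8.02% of bin 5 in WT and 21.4% in cKO, and upper-layer type cells 55.8% and 34.2%. Within upper-layer type cells the cKO share was 10.2%, 5.97%, 6.90%, 7.86% and 11.9%, so that bin 5 differed from bin 1 by 1.72 points (-11.5 to 11.9), against 20.03 points in WT (1.54 to 33.2). From bin 1 to bin 5 these cKO cells went from 2.51 to 6.03 CPM of *Slc12a5* and from 22.1 to 44.5 CPM of *Slc12a2*. The *Slc12a5* levels rest on 5 and 13 UMIs and lie under the 8.48 CPM upper limit of cKO microglia. Their difference was not set against counting error.

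**Figure D5:**
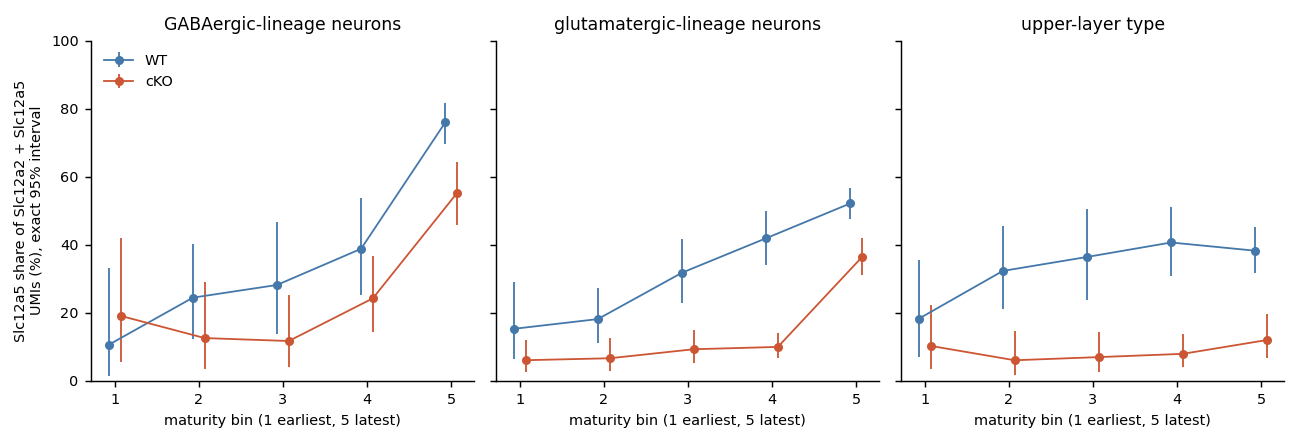
Slc12a5 share of Slc12a2 plus Slc12a5 UMIs in percent (y axis) by maturity bin (x axis) in 3 groups of neurons, WT in blue and cKO in red, with exact binomial intervals. The share climbs to 75.9% in WT and 55.2% in cKO GABAergic-lineage neurons and to 52.1% and 36.3% in glutamatergic-lineage neurons, while the cKO upper-layer cells stay between 5.97% and 11.9%.

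The index itself differed between the libraries. Its median was 3.64% in WT and 3.95% in cKO GABAergic-lineage neurons, and 4.72% and 3.45% in glutamatergic-lineage neurons. Among its genes *Syt1* was lower in cKO, with log2 ratios of -0.95 and -1.34 in the 2 lineages, and *Igfbpl1* at -1.03 in GABAergic-lineage neurons, while *Rbfox3* was higher at 0.65 and 0.29. In glutamatergic-lineage neurons all 5 early genes were higher in cKO, from *Igfbpl1* at 0.15, *Tubb2b* at 0.26 and *Sox11* at 0.37 to *Nfib* at 0.67 and *Sox4* at 0.74. Bins group cells by this mixture, but bin 5 is wide. It spanned index values from 10.8% to 90.2% in GABAergic-lineage and from 9.09% to 66.0% in glutamatergic-lineage neurons. Bin 4 spanned 5.22% to 10.8% and 5.19% to 9.09%. Cells of bin 5 are thus not matched closely on the index between libraries. The part of the index and of its spread within bins in the differences was not tested.

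Other genes that supply, clear or transport GABA and chloride were described from 40 genes in 7 lists. In GABAergic-lineage neurons 29 of them had at least 50 UMIs, of which 2 were at least 2-fold higher and 2 at least 2-fold lower in cKO, with a median log2 ratio of 0.25 against -0.06 for all genes. In glutamatergic-lineage neurons 32 were tested, with 1 higher and 1 lower, and a median of 0.13 against -0.17. In radial glia/astrocytes 27 were tested, with 0 higher and 1 lower, *Wnk3* at -1.96 (-2.98 to -1.04), from 43 and 13 UMIs. Shares of 2 in 29 and 1 in 32 stand beside the backgrounds given above and are no result about the lists.

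Among the transporters that clear GABA from the synapse, *Slc6a11* (GAT3) was 276 and 253 CPM in radial glia/astrocytes and 226 and 154 CPM in OPC. It was lower in GABAergic-lineage neurons, at 9.39 and 14.7 CPM, and in glutamatergic-lineage neurons, at 33.4 and 30.4 CPM. *Abat*, which breaks GABA down, was 50.1 and 31.7 CPM in GABAergic-lineage neurons, a log2 ratio of -0.66 (-0.90 to -0.43). *Aldh5a1*, the other gene of GABA breakdown on the list, had 0.44 (0.051 to 0.84). *Slc38a2*, a carrier of the precursor glutamine, was higher in cKO in both lineages, at 0.73 (0.57 to 0.89) and 0.71 (0.63 to 0.80).

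Of the other cation-chloride cotransporters, *Slc12a9* passed 2-fold in both lineages, at 20.4 and 47.2 CPM in GABAergic-lineage neurons (1.21, 0.94 to 1.49) and 20.96 and 44.4 CPM in glutamatergic-lineage neurons (1.08, 0.93 to 1.24). Of the kinases that act on the cotransporters, *Wnk1* had 0.21 and 0.36 and *Oxsr1* -0.54 and -0.41 in the 2 lineages, none past 2-fold. *Slc4a10*, a sodium-dependent bicarbonate carrier, was at least 2-fold lower in GABAergic-lineage neurons at -1.08 (-1.89 to -0.31), from 49 and 21 UMIs.

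Among known regulators of *Slc12a5*, the activator *Egr4* was lower in cKO in both lineages, at -1.27 in GABAergic-lineage neurons (-2.14 to -0.46) and -1.75 in glutamatergic-lineage neurons (-2.62 to -0.95), but from only 48 and 18 UMIs and 51 and 18 UMIs. The repressor *Rest* had 1.36 in GABAergic-lineage neurons (0.55 to 2.22), from 19 and 44 UMIs, and 0.77 in glutamatergic-lineage neurons (0.37 to 1.17). *Neto2*, a partner of the KCC2 protein, had 0.33 and 0.57, and *Usf1* 0.59 and 0.65. *Ntrk2*, the BDNF receptor, differed in sign, at 0.44 (0.30 to 0.57) and -0.46 (-0.54 to -0.38). Whether any of these moved with *Slc12a5* cell by cell was not tested.

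Across 15 cell groups in both libraries (30 points, which share library and depth), the level of *Gad1* ran with *Slc32a1* at r = 0.98 and with *Gad2* at r = 0.95 on a log2 scale, as a description. *Slc12a5* ran with *Slc32a1* at r = 0.51, and with *Slc12a2* at r = -0.47. Among 10370 other genes compared, those most like *Gad1* were *Nrxn3* (r = 0.96), *Sp9* (0.95) and *Erbb4* (0.92). Those most like *Gad2* were *Sp9* (0.97), *Nrxn3* (0.96) and *Rgs8* (0.91), and *Slc32a1* had the same 3 genes at 0.93 each. *Slc12a5* was most like *Scn9a* (0.86), *Cntnap5a* (0.86) and *Ctxn2* (0.85). *Slc12a2* had no close match, with *Fosb* (0.76), *Bicc1* (0.76) and *Fam102a* (0.75) nearest.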

How the data were processed

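The authors captured cells of dissociated tissue on the 10x Genomics Chromium platform and deposited, for each library, a matrix of UMI counts for genes and barcodes. The deposited values are raw whole counts without normalization. The submitters' processing notes name STAR, Cell Ranger 2, Seurat and the build mm9, while the matrix header names software version 3.0.1. How cells were called and the strand of counting are not given in the sources used here. The WT library held 10715 barcodes and 69554624 UMIs and the cKO library 9198 barcodes and 67448785 UMIs. Not used were the combined matrix, tables repeating the counts, and a table of the authors' own cluster comparisons (fold changes and p-values).

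Cells with at least 500 genes and at most 10% mitochondrial UMIs were kept (6766 and 6080), and doublets were called per library with Scrublet in scanpy 1.11.5 on log-transformed counts (3.99% and 3.24%) and removed. The log transform was chosen after the default setting had called 0 doublets in the cKO library. A gate was passed with at least 3 UMIs from at least 2 genes of a marker list and was absent with at most 1. Counts were summed per group and library as CPM with exact Poisson intervals. Ratios have exact conditional binomial intervals, shares have Clopper-Pearson intervals, and differences of shares combine both. Intervals cover counting error only, at the 95% level. Log2 ratios of all genes (0.5 UMIs added) needed at least 50 UMIs over both libraries. Thinning drew 2000 UMIs per cell. A share of 0 cells is given with the limit of 3 cells. Maturity bins hold equal numbers of cells over both libraries, for neurons with at least 5 index UMIs. Likeness is Pearson's r of log2(CPM + 10) over groups of at least 50 cells in each library, among genes with at least 200 UMIs in each, without marker genes of the gates. The rule for named genes took the 5 genes in every group, pathway genes past 2-fold or with at least 50 UMIs, and the 3 genes most like each of the 5. Levels in groups not described in the text are in the plot of levels, for groups of at least 20 cells. The ratio and interval code was tested on simulated data. Members and lists were chosen with earlier results of these data known. Calculations used Python 3.11.15, numpy 2.4.6, scipy 1.17.1, pandas 2.3.3, R 4.3.3 and edgeR 4.0.16 (TMM factors only). Protein sequences planned for Gad1 and Gad2 were not used here. Values of some genes on the lists are not reported here.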

Additional observations from a re-analysis of the deposited data

Results flagged for a closer look

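3 of the 5 genes had log2 ratios of cKO over WT on opposite sides of 0 in different cell types, with both intervals clear of 0 and at least 10 CPM in each library. *Gad1* was lower in cKO MGE type cells (-0.65) and higher in cycling *Dlx* cells (0.67). After thinning, the share of cells with *Gad1* differed by -12.1 points in MGE type cells (-22.4 to -1.75). In cycling *Dlx* cells it differed by 7.95 points (-1.69 to 18.4), an interval that includes 0. *Slc32a1* had a lower summed level in cKO CGE type cells (-0.44) and a higher one in cKO cycling *Dlx* cells (0.65). In CGE type cells at most 19 of its UMIs lay in a WT cell and 4 in a cKO cell. The share of CGE type cells with *Slc32a1* was 47.3% in WT and 57.1% in cKO. After thinning it was 28.0% and 27.4%, a difference of -0.65 points (-11.4 to 9.86). In cycling *Dlx* cells the thinned difference was 0.76 points (-6.75 to 9.51). *Slc12a2* was lower in cells of the mural gate (-1.28), which number 30 in WT and 21 in cKO and include cells with glial markers (-1.17 without them; cells left out as mixed that passed the mural list without the glial list had 162 and 172 CPM), and higher in upper-layer type cells (0.63). With 1 library per genotype the differences between types were not tested.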

How the results depend on the processing

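No paired analysis was possible because each genotype has 1 library, and for the same reason no library could be left out. Of 72 log2 ratios under alternatives, 62 stayed within the interval of the value reported, 9 moved outside it and 1 with an interval clear of 0 turned. *Gad1* in GABAergic-lineage neurons, whose interval included 0, kept its sign in 5 of 8. *Slc32a1* in GABAergic-lineage neurons turned to 0.17 with the mean of each cell's CPM, under which *Gad1* was 0.21. With TMM factors, which add 0.11 to every log2 ratio in GABAergic-lineage and 0.19 in glutamatergic-lineage neurons, *Gad1* was 0.064 and *Gad2* 0.71 there, and *Slc12a2* was 0.65 in glutamatergic-lineage neurons. With the stricter cell filter (at least 1000 genes, at most 5% mitochondrial) *Slc12a2* was 1.06 and *Slc12a5* -1.71 in GABAergic-lineage neurons, *Slc12a5* -3.13 in glutamatergic-lineage neurons and *Gad2* 1.31 in cycling *Dlx* cells. Without a cell filter *Slc12a5* was -0.62 in GABAergic-lineage neurons. *Gad2* stayed higher (0.54 to 0.71) and *Slc12a5* lower in both lineages under all 8 alternatives.

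The *Slc12a5* share kept its sign in all 44 alternatives. In cKO GABAergic-lineage neurons bin 5 minus bin 1 ranged from 12.5 points (stricter filter) to 47.1 points. In glutamatergic-lineage neurons bin 5 exceeded bin 1 in WT by 72.8 points with the stricter filter and 15.1 points in cells thinned to 2000 UMIs (interval -10.7 to 37.4), and in cKO by 22.2 points when thinned and 19.3 points with 3 bins. With the stricter filter cKO minus WT was -42.8 points in GABAergic-lineage and -46.3 points in glutamatergic-lineage neurons. Shares of GABAergic-lineage neurons with a UMI, cKO minus WT, were 7.05 points for *Gad1* and 6.69 points for *Slc32a1* with the stricter filter and 4.08 points for *Slc12a2* when thinned to 4000 UMIs, where *Slc12a5* in glutamatergic-lineage neurons gave -2.83 points.

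Genes at least 2-fold higher numbered 465, 538 and 276 in GABAergic-lineage neurons, glutamatergic-lineage neurons and radial glia/astrocytes, and 270, 350 and 97 with at least 200 UMIs. Genes at least 2-fold lower numbered 1392, 2012 and 767, and 659, 1322 and 173. TMM factors gave 653 higher and 1185 lower, 868 higher and 1533 lower, and 440 higher and 586 lower. A minimum of 200 UMIs tests fewer genes, and the cause of the other changes was not tested. Depth limits *Slc12a5* most, with 92 UMIs in cKO GABAergic-lineage neurons.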
